A study of Mus musculus with 84 samples.

Results

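GATA2, MITF and 8 other transcription factors of mast cell identity were followed in RNA-seq of MMC9s, the IL-9-producing mucosal mast cells of the small intestine. The 10 genes were chosen by name from the 55471 genes of the deposited tables: Gata2, Gata1, Gata3 and the GATA cofactor gene Zfpm1, then Mitf, Meis1, Tal1, Runx1, Spi1 and Cebpa. Bulk MMC9s came from the small intestine of BALB/c recipients with food allergy to ovalbumin: sensitized WT mice were given bone marrow progenitors of WT, IL-4RaY709F or IL-4Ra-/- donors and then 7 oral ovalbumin challenges, 3 each week. IL-4RaY709F is a mutant of the receptor for IL-4 (alpha chain) with gained function, and in IL-4Ra-/- the function of that chain is lost. Each genotype had 1 library, whose RNA was pooled from 12 to 20 biological replicates, so the spread between animals is not visible and no difference has a replicate check. The sources used here do not give the age of the mice, the gate of the bulk sort or the share of MMC9s that came from recipient cells. A second data set held 81 single MMC9s of WT BALB/c mice sensitized with ovalbumin in alum, gated as c-Kit+ and ST2+, low in β7-integrin, high in IL-4GFP, and Lin- and IL-17RB2-. Their animals are not named in the labels, so the cells were treated as 1 sample.

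GATA2 is a zinc finger factor that binds GATA sites and, with MITF, a basic helix-loop-helix factor of E-box sites, drives the genes that define a mast cell: the receptor Kit, the IgE receptor chains and the granule proteases. GATA1 is its relative, used in mast cells and in the red cell and platelet lineages, where the cofactor FOG (encoded by Zfpm1) is its partner. TAL1, RUNX1 and MEIS1 act in blood stem cells and several myeloid lineages. Spi1 encodes the ETS factor of myeloid and B cells, and CEBPA promotes granulocyte fate and is kept low in mast cells.

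The bulk libraries held 2299793 (WT), 2521791 (IL-4RaY709F) and 2330628 (IL-4Ra-/-) reads in genes. Levels are given as CPM (reads scaled to a common library total, with trimmed means, TMM), on which 3 reads made 1.18 to 1.31. Il4ra, the gene altered in the donors, had 806, 1831 and 350 reads, so the IL-4Ra-/- library was lower than WT (log2 ratio -1.36) but not at 0. Batf, the factor that the study places under IL-4, had 344, 1061 and 131 reads. Of 14 mast cell markers, 14 passed 50 reads in these libraries, and the protease gene Cpa3 had 14961, 19690 and 15046 CPM. Markers of other cells were unequal: 12 macrophage or monocyte genes that are rare in MMC9s summed to 406, 222 and 1450 reads, and B cell or plasma cell markers summed to 6701, 3186 and 13529 CPM. In bulk RNA, fewer cells of a type and less RNA per cell cannot be told apart.

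Of the 81 cells, 80 had at least 10000 gene reads and were kept (163596 to 2210211 reads, median 1209300), and 1 with 1225 reads was left out. Cpa3 was present with 10 reads or more in 80 of 80 cells and Kit in 79. In 2 of the 80 cells, immunoglobulin genes took 41.2% and 65.4% of the gene reads, against at most 0.131% in each of the others. These 2 cells went against their label: Cpa3 was at 187 and 40.8 CPM in them, against a median of 16396 CPM over the 80 cells. They were the 2 lowest of the 80 cells for Cpa3, but by a small margin for 1 of them. The lowest value among the other cells was 218 CPM. Results from cells are given with them, and without them where that changes a value.

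The 250 bases before the RefSeq transcript starts (GRCm38.p6) are shown for the genes on which the results turn: Gata2, the most abundant factor, with both of its starts; Zfpm1 and Meis1, which passed the size rule below in a comparison with WT; and the Mitf start nearest to a GATA match. Capitals mark matches on both strands to the GATA motifs AGATAA and also TGATAA, the E-boxes CACGTG and also CATGTG, the RUNX motif TGTGGT and the STAT6 motif TTCNNNNGAA. The positions are chr6:88193641-88193890 and chr6:88198414-88198663 for Gata2, chr8:122281891-122282140 for Zfpm1 and chr6:97991533-97991782 for Mitf, on the plus strand, and chr11:19018970-19019219 on the minus strand for Meis1.
Gata2 first start: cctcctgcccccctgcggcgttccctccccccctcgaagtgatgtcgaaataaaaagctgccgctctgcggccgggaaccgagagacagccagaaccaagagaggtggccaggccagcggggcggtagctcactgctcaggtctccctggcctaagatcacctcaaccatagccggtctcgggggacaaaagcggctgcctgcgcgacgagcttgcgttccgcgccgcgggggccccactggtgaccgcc
Gata2 second start: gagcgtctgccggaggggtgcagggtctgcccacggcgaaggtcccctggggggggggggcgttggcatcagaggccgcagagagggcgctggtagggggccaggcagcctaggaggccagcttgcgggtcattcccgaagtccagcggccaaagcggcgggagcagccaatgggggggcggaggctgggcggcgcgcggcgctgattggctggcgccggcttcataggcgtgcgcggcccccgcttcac
Zfpm1: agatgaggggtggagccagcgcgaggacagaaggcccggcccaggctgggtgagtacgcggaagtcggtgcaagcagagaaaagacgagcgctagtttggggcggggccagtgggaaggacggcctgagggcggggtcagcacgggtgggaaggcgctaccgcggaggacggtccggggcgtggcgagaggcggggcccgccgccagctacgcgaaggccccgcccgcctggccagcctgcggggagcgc
Meis1: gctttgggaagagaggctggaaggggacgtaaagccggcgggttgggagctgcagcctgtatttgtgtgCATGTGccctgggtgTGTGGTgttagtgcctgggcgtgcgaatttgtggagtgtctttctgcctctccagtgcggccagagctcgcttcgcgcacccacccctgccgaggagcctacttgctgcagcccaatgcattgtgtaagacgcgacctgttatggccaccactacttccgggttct
Mitf: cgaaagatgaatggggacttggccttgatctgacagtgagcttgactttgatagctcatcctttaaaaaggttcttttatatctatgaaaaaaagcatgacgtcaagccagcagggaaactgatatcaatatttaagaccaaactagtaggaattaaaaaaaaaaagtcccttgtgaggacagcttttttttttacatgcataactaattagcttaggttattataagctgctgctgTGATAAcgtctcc
In the Meis1 window CATGTG began 181 bases and TGTGGT 166 bases before the start, and in the Mitf window TGATAA began 13 bases before it. This Mitf window was picked among the Mitf starts for its match, so the match is no result. Which Mitf start MMC9s use was not measured. Of 14 windows of 9 of the genes, 8 had no match, among them both Gata2 windows and the Zfpm1 window. Other matches were TGTGGT and TGATAA at the remaining Mitf starts, CACGTG, which reads the same on both strands, at a Runx1 start, and AGATAA at a Tal1 start. Of 32851 RefSeq windows of the same length, 9.99% held AGATAA, 7.94% TGATAA, 6.02% CACGTG, 12.3% CATGTG, 14.05% TGTGGT and 5.85% TTCNNNNGAA. A match is a run of letters and not a measured binding site.

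Gata2 was far above the other factors in each library (chr6:88193891-88207032, plus strand; positions are GRCm38). Per kilobase of exon (RPKM) it stood at 496 in WT, 459 in IL-4RaY709F and 435 in IL-4Ra-/-. In WT it ranked 69 of the 10479 genes with at least 20 reads over the libraries, and 1 of the 65 factor genes listed here, ahead of Id2 (307 RPKM), the inhibitor of helix-loop-helix factors. Gata2 exceeded Kit 1.49-fold per length in WT. The next of the 10 genes in WT were Tal1 at 79.4 RPKM, Mitf at 65.04 and Runx1 at 46.4. Below them came Spi1 at 36.04, Gata1 at 30.9, Zfpm1 at 10.9 and Meis1 at 8.39. Cebpa at 1.49 and Gata3 at 0.44 RPKM were lowest. Counting intervals (exact, 95%) of neighbours in this order overlapped for Spi1 and Gata1, for Zfpm1 and Meis1 and for Cebpa and Gata3. In IL-4RaY709F Gata1 (40.7) stood before Spi1 (29.7) with intervals that did not overlap, and Gata3 (0.54) before Cebpa (0.49) with overlapping ones. In IL-4Ra-/- Mitf (63.7) stood before Tal1 (61.2) with overlapping intervals, and Meis1 (7.92) stood before Zfpm1 (5.05) with intervals that did not overlap.

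**Figure D1:**
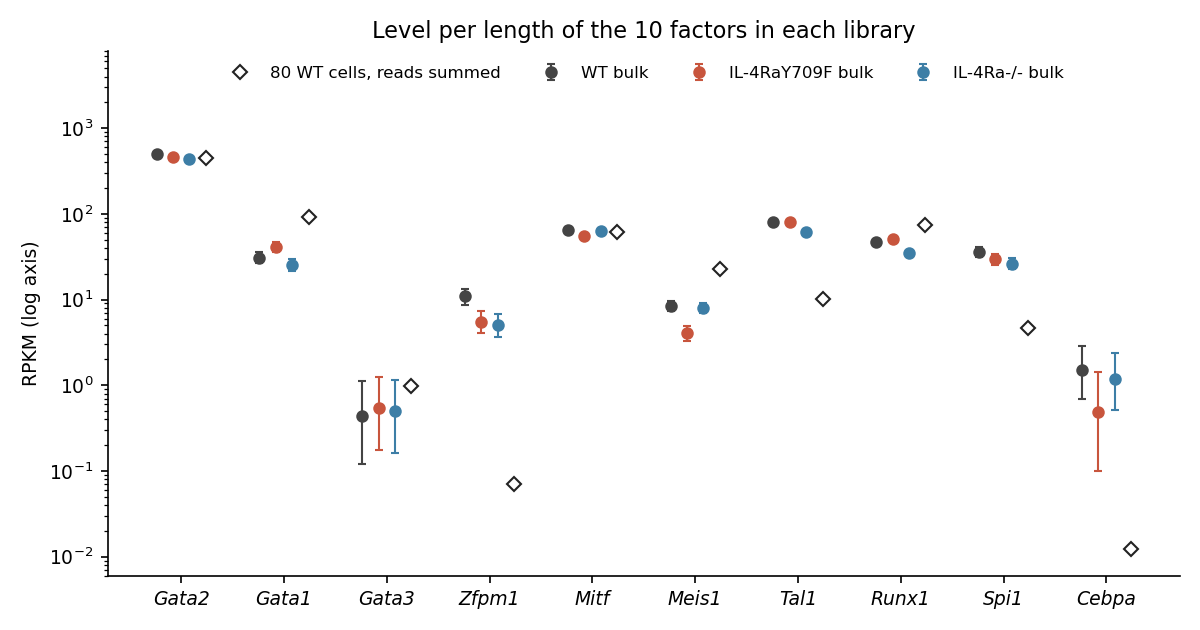
Level per length (RPKM, log axis) of the 10 genes in the 3 bulk libraries (filled points, bars are exact 95% counting intervals) and in the summed reads of 80 WT cells (open diamonds). Gata2 lies between 435 and 496 RPKM in bulk, and Zfpm1 is at 10.9 RPKM in WT bulk but at 0.07 in the summed cells.

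The first comparisons asked whether the receptor genotype altered these factors. A gene was counted as higher or lower when its larger library had 50 reads or more, the ratio was 2-fold or more and the exact 95% interval of the counts excluded no difference. Against WT, 8 of the 10 genes could be tested in each mutant, and the comparisons share the WT library. In IL-4RaY709F 1 of 8, Meis1, was lower, where 0.771% of all 5964 genes tested were lower and 2.45% differed either way. In IL-4Ra-/- 1 of 8, Zfpm1, was lower, where 1.3% of 6246 genes were lower and 3.73% differed either way. None of the 8 was higher in IL-4RaY709F, as were 1.68% of all genes, or in IL-4Ra-/-, as were 2.43%. Between the mutants 0 of 7 differed, where 8.12% of 6319 genes did, 4.62% higher and 3.5% lower in IL-4RaY709F. The median log2 ratio of the 9 genes with 20 reads or more was -0.24 in IL-4RaY709F and -0.32 in IL-4Ra-/-, against 0.00268 and -0.03 over all such genes. Between the mutants it was 0.13, against 0.02.

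**Figure D2:**
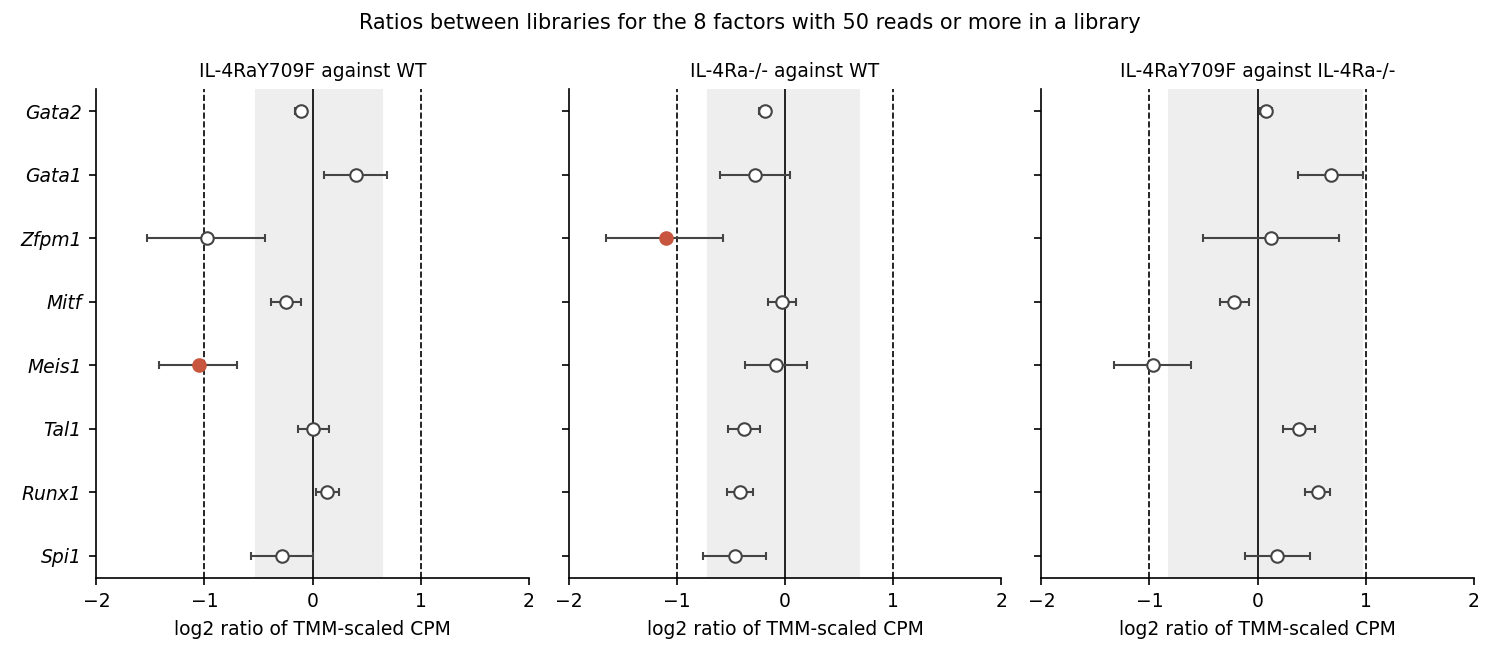
Log2 ratios of TMM-scaled CPM between libraries for 8 genes, with exact 95% counting intervals; filled points pass the size rule, dashed lines mark 2-fold and the grey band runs from the 5th to the 95th percentile of genes tested. Meis1 at -1.05 (IL-4RaY709F against WT) and Zfpm1 at -1.11 (IL-4Ra-/- against WT) are the filled points.

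Among the GATA factors, Gata2 had 6115 reads in WT, 5762 in IL-4RaY709F and 5969 in IL-4Ra-/-, or 2676, 2477 and 2347 CPM. The levels were close, with log2 ratios to WT of -0.11 (-0.16 to -0.06) and -0.19 (-0.24 to -0.14). Both lie between the 5th and the 95th percentile of genes tested, which were -0.52 and 0.64 in IL-4RaY709F and -0.71 and 0.69 in IL-4Ra-/-. Between the mutants Gata2 was at 0.08, or -0.16 when scaled by total reads, so that its order between them depends on the scaling. Gata1, on chrX:7959260-7978071 (minus strand), had 172, 231 and 158 reads, or 75.3, 99.3 and 62.1 CPM. It was highest in IL-4RaY709F and lowest in IL-4Ra-/-, with log2 ratios to WT of 0.40 (0.11 to 0.69) and -0.28 (-0.60 to 0.04) and of 0.68 (0.38 to 0.98) between the mutants. This ratio stayed short of 2-fold. Per length, Gata2 exceeded Gata1 16.1-fold in WT, 11.3-fold in IL-4RaY709F and 17.1-fold in IL-4Ra-/-. Gata3, the factor of T cells and type 2 innate lymphoid cells, had 4, 5 and 5 reads, too few for a comparison.

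Zfpm1 (chr8:122282141-122337251, plus strand) had 87 reads in WT and 45 in each mutant, or 38.1, 19.3 and 17.7 CPM. The WT library was the high one, and the mutants did not differ from each other by more than counting error (0.13, -0.50 to 0.76). The log2 ratio to WT was -1.11 (-1.66 to -0.57), or 2.15-fold lower, in IL-4Ra-/- and -0.98 (-1.53 to -0.44), or 1.97-fold lower, in IL-4RaY709F. These values lie just inside and just outside the 2-fold rule. Scaled by total reads they exchanged sides, at -0.97 and -1.08. The overlapping gene Gm20388 shared no exon bases with Zfpm1 and had 0 reads. Of 14 erythroid and megakaryocyte markers, the lineages in which FOG is best known, 12 rare in the cells summed to 27, 14 and 20 reads. Their log2 ratios to WT were -0.97 (-2.02 to 0.01) and -0.59 (-1.50 to 0.30), with Gp9, Gp1bb and Alas2 at 0 in each library. The part of such cells in the Zfpm1 reads was not tested.

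Mitf (chr6:97807052-98021349, plus strand) had 921, 791 and 1003 reads, or 403, 340 and 394 CPM. The IL-4RaY709F library was lowest, at a log2 ratio to WT of -0.24 (-0.38 to -0.11), and WT and IL-4Ra-/- were alike within counting error (-0.03, -0.16 to 0.10). Gata2 exceeded Mitf per length 7.62-fold in WT, 8.36-fold in IL-4RaY709F and 6.83-fold in IL-4Ra-/-.

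Meis1, a homeobox factor (chr11:18879817-19018985, minus strand), had 202 reads in WT, 99 in IL-4RaY709F and 212 in IL-4Ra-/-, or 88.4, 42.6 and 83.4 CPM. IL-4RaY709F was the low library and the other pair overlapped (-0.08, -0.37 to 0.20). Its log2 ratio was -1.05 (-1.42 to -0.70), or 2.08-fold lower, against WT and -0.97 (-1.33 to -0.62) against IL-4Ra-/-, the second just short of 2-fold and past it (-1.21) when scaled by total reads. The unclassified transcript Gm37818, which overlaps 9.77% of the Meis1 exons on the same strand, had 9, 0 and 13 reads. The 24 cycling genes summed to 1198, 1110 and 2313 reads, with 19 of 22 measured genes below 0 in IL-4RaY709F (median -0.50, 0 of 7 tested past the rule) and 6 of 11 tested higher in IL-4Ra-/- (median 0.81). Of 12 blood progenitor markers, 8 rare in the cells summed to 25, 14 and 16 reads, with Mpo and Elane at 0 in each library. The part of either in the Meis1 difference was not tested.

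Tal1, the helix-loop-helix partner of the GATA complex (chr4:115056426-115071755, plus strand), had 795, 812 and 681 reads, or 348, 349 and 268 CPM. Runx1 (chr16:92601466-92826149, minus strand) had 1276, 1429 and 1063 reads, or 558, 614 and 418 CPM. Both were lowest in IL-4Ra-/-, at log2 ratios to WT of -0.38 (-0.53 to -0.23) for Tal1 and -0.42 (-0.54 to -0.30) for Runx1. In IL-4RaY709F Tal1 was at 0.01 (-0.14 to 0.15; -0.10 when scaled by total reads) and Runx1 at 0.14 (0.03 to 0.25). Gata1, Tal1 and Runx1, 3 of the 10 genes, were lowest in IL-4Ra-/- and highest in IL-4RaY709F, an order held by 23.2% of the 10479 genes with 20 reads or more over the libraries. For Tal1 the step from WT to IL-4RaY709F, and for Gata1 the step from WT to IL-4Ra-/-, was within counting error. None of the 3 reached 2-fold between the mutants, where Tal1 was at 0.38 (0.23 to 0.53) and Runx1 at 0.56 (0.44 to 0.67). Scaled by total reads, Tal1 lost this order, and the Runx1 step from WT to IL-4RaY709F fell to 0.03, within counting error. WT was the highest library for 6 genes (29.1% of all) and the lowest for Gata3, and Mitf and Meis1 were highest in IL-4Ra-/- when scaled by total reads.

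Spi1 (chr2:91082390-91115756, plus strand) had 222, 186 and 179 reads, or 97.1, 79.97 and 70.4 CPM. It was lower in IL-4Ra-/- than in WT by a log2 ratio of -0.46 (-0.76 to -0.17), while 10 of 11 tested macrophage or monocyte markers were higher there (median of 16 genes 1.47). The 12 of these genes that are rare in MMC9s, none at 0 in a library, were at log2 1.68 (1.52 to 1.84) in IL-4Ra-/- and -0.90 (-1.14 to -0.66) in IL-4RaY709F. Spi1 is also transcribed in macrophages and B cells, and their part in its level was not tested. Cebpa had 9, 3 and 8 reads.

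Genes that work with these factors were counted by the same rule. Of 15 partners of the GATA and TAL1 complex, 13 could be tested. In IL-4RaY709F 0 differed, where 2.45% of all genes did. In IL-4Ra-/- 1 was lower, where 1.3% of all genes were. That gene was Ssbp4, of the family that stabilizes the adaptor LDB1, with 144, 134 and 78 reads (log2 ratio to WT -1.04 in IL-4Ra-/-). Scaling by total reads shifts this ratio by 0.13, which leaves it short of 2-fold. Medians over the list were -0.13 and -0.12. The highest and lowest log2 ratios in IL-4RaY709F were those of Tcf12, an E protein and the most abundant partner (0.25), and of the corepressor Cbfa2t3 (-0.85, with 418, 236 and 313 reads). In IL-4Ra-/- the LIM adaptor Lmo4 was highest (0.14).

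Of 10 relatives and regulators of MITF, 7 could be tested, with list medians of -0.03 and -0.06. Of the 7, 0 differed in any comparison. Of all genes, 2.45% differed in IL-4RaY709F, 3.73% in IL-4Ra-/- and 8.12% between the mutants, so 0 of 7 does not set the list apart. Ep300, the histone acetyltransferase with most reads (485, 375 and 488), was at -0.40 in IL-4RaY709F and -0.15 in IL-4Ra-/-. Tfe3, the nearest relative of MITF that was well measured, was at -0.20 and 0.50, and Usf1, another E-box factor, was at -0.68 and -0.69. The 5th percentiles of genes tested were -0.52 and -0.71, so Usf1 lay below that range in IL-4RaY709F. Hint1, a MITF inhibitor, was at 0.17 and -0.06.

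Of 30 other blood lineage factors, 20 could be tested. None differed in IL-4RaY709F from WT, where 2.45% of all genes did. In IL-4Ra-/- 1 of 20 was lower, where 1.3% of all genes were. It was Notch1 (593, 716 and 311 reads, log2 ratio -1.09, or -0.95 when scaled by total reads). Between the mutants Stat5a (1.46), Etv6 (1.40) and Notch1 (1.33) were higher in IL-4RaY709F and Runx2 (-1.38) was lower, 4 of 20 where 8.12% of all genes differed. Stat5a, which carries signals of cytokine receptors, had 604, 1017 and 404 reads, and the ETS repressor gene Etv6 had 661, 1048 and 433, each with WT between the mutants. Runx2, a relative of Runx1, had 94, 48 and 137 reads in the reverse order. Id2 had most reads of the list, and its log2 ratios were 0.13 and -0.18. Hes1, a Notch target, was highest in IL-4Ra-/- at 0.43.

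The last list held 25 mast cell genes known as targets of GATA2 or MITF. Of 24 tested, 3 were higher in IL-4RaY709F than in WT (1.68% of all genes were), the chymase gene Cma1 (1.67), the granzyme gene Gzmb (1.56) and the cytokine gene Il13 (1.12), and 0 were lower, with a list median of 0.43. In IL-4Ra-/- 0 of 24 differed from WT, where 3.73% of all genes did, and the list median was -0.07. Cma1 had 2978, 9658 and 2173 reads, and Gzmb had 4798, 14415 and 4910, so for both the IL-4RaY709F library was the high one. Kit stayed near WT (-0.13 and 0.02), as Gata2 did, and Cpa3, the gene of the list with most reads, was at 0.40 and 0.01. The solute carrier gene Slc45a3 was lowest in IL-4RaY709F (-0.71), and the integrin gene Itga4 was highest in IL-4Ra-/- (0.73). Between the mutants 4 of 24 were higher in IL-4RaY709F, where 4.62% of all genes were, and 0 were lower, where 3.5% were. The 4 were Cma1 (2.28), Tpsb2 (1.71), Gzmb (1.68) and Hdc (1.02), genes of proteases and of histamine synthesis. Scaling by total reads shifts these ratios by -0.24, which leaves Hdc short of 2-fold. Reads of tryptase and chymase genes may be split among near-identical copies, which makes Tpsb2 uncertain.

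In single WT cells, Gata2 was the factor found throughout. It had 10 reads or more in 80 of 80 cells (100%, exact 95% interval 95.5 to 100%), with a median of 2091 CPM. Its range was 6.43 to 5618 CPM, and 39.1 to 5618 without the 2 immunoglobulin-rich cells, which had 12 Gata2 reads each. Its coefficient of variation over the 78 other cells was 0.631, which ranked 15 from the lowest among 104 genes with a mean of 1000 CPM or more (median 0.938). Per length, Gata2 was the highest of the 10 genes in 70 of 80 cells, Gata1 in 6, Runx1 in 2, Mitf in 1 and Spi1 in 1. Runx1 was detected in 74 cells (92.5%, 84.4 to 97.2%), with a median of 584 CPM and a highest cell of 4044 CPM.

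The remaining factors were found in fewer cells. Mitf had 10 reads or more in 49 of 80 (61.25%, 49.7 to 71.9%), with at least 1 read in 75, so that some cells held it at fewer than 10 reads. Its quartiles were 4.13, 62.2 and 622 CPM, and its highest cell had 2124 CPM. Gata1 was detected in 43 cells (53.75%, 42.2 to 64.97%), with a median of 270 CPM in those cells and at least 1 read in 56. It was thus high in some cells and at or near 0 in others. Meis1 was detected in 36 cells (45%, 33.8 to 56.5%), with 49.1% of its reads in 5 cells and up to 2634 CPM in a cell, the most uneven of the factors found in over 30 cells. Tal1 was detected in 34 cells (42.5%, 31.5 to 54.1%), with a highest cell of 350 CPM. Spi1 was detected in 11 cells (13.75%, 7.07 to 23.3%) and Gata3 in 5 (6.25%), 1 of which held 47.4% of its reads. Zfpm1 was detected in 1 cell (1.25%, 0.0316 to 6.77%) and had 23 reads in 2 cells. Cebpa was detected in 0 of 80 cells, which allows a share of up to 3.75% (3 of 80 cells; the exact 95% upper limit is 4.51%), and had 3 reads in 1 cell. Without the 2 immunoglobulin-rich cells the counts of Gata2 (78 of 78) and Runx1 (73 of 78) changed and the other counts did not. These intervals treat the cells as independent draws. The animals of the cells are not named, so spread between animals is not covered. Reads of a cell are also not independent molecules.

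**Figure D3:**
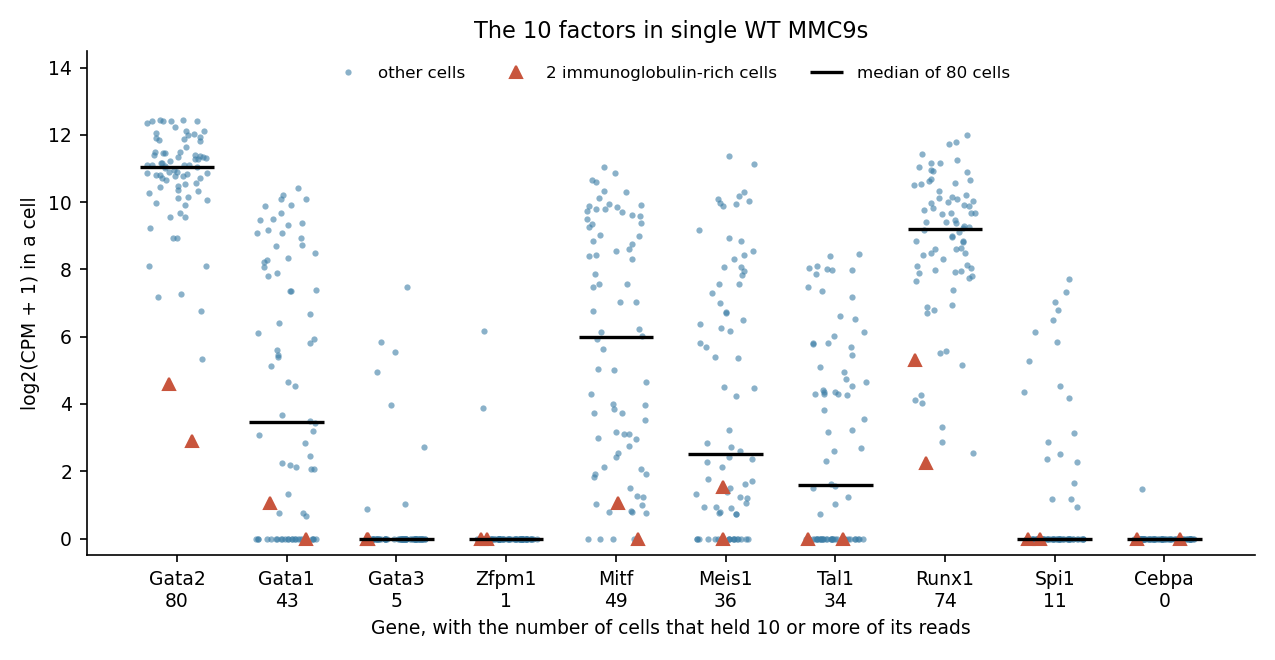
Level of each gene in each of 80 WT cells, as log2(CPM + 1); bars are medians, triangles are the 2 immunoglobulin-rich cells, and the number under each gene counts cells with 10 or more of its reads. Gata2 and Runx1 form high bands (80 and 74 cells), while Mitf, Gata1, Meis1 and Tal1 spread from 0 upward in 34 to 49 cells.

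Cells differed in which factors reached 10 reads. By that rule the 80 cells fell into 32 different sets of detected factors, of which 15 occurred in 1 cell. The sets depend on the rule: at least 1 read was found for Runx1 in 80 cells, Mitf in 75, Meis1 in 61 and Gata1 in 56. The part of missed reads in these sets was not tested. The largest sets, with 9 cells each, were Gata2 with Runx1 alone and Gata2 with Gata1, Mitf, Meis1 and Runx1. Gata2, Runx1 and Mitf were detected together in 47 cells, and these 3 with Gata1 in 30. Between 1 and 6 factors were detected in a cell (median 4.5, or 5 without the 2 immunoglobulin-rich cells). Gata1 and Mitf shared 31 cells, or 72.1% of the Gata1 cells and 63.3% of the Mitf cells. Mitf and Meis1 shared 29, or 59.2% and 80.6%. Mitf and Tal1 shared 27, or 55.1% and 79.4%. Beside these, the shares over all 80 cells were 61.25% for Mitf, 53.75% for Gata1, 45% for Meis1 and 42.5% for Tal1. Whether any pair shared more cells than these shares would give was not tested.

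Over the 80 cells, which share a sort, a preparation and differences in depth, Gata2 was compared with 8 mast cell genes. Its Spearman rho was 0.44 with the IgE receptor gene Fcer1a, 0.43 with Cpa3 and 0.41 with Ms4a2, a second IgE receptor gene, and 0.39, 0.39 and 0.36 over the 78 cells without the immunoglobulin-rich pair. With the other 5 it was lower, at 0.25 (Hdc), 0.24 (Il1rl1), 0.21 (Kit), 0.17 (Cma1) and 0.15 (Mcpt1), and between 0.10 and 0.19 over the 78 cells. With Runx1 it was 0.33 and with Mitf 0.32, and both were 0.28 over the 78 cells. With Gata1 it was 0.17, with Meis1 -0.05 and with the gene reads of the cell 0.12. Mitf had a rho of 0.33 with Tal1, 0.31 with Runx1, and among the 8 mast cell genes from 0.07 (Mcpt1) to 0.33 (Ms4a2). Gata1 had 0.31 with the gene reads of the cell, which is the depth of sequencing. Meis1 had 0.26 and Runx1 0.31 with the summed cycling genes (0.24 and 0.26 over the 78 cells), and Gata2 had -0.11 (-0.19). All of these relations are given as descriptions. Those of Mitf, Gata1 and Meis1 rest on counts that were sparse in many cells, while Gata2 and Cpa3 were detected in each cell.

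Of 3626 genes detected in 20 or more cells, those whose level over cells was most like that of Gata2 were Arf5 (rho 0.50), a small GTPase gene, Inpp4b (0.49), a phosphoinositide phosphatase gene, Gm2a (0.49), the GM2 ganglioside activator gene, Prnp (0.48), the prion protein gene, and Pan3 (0.48), of the deadenylase complex. The 95th percentile over all genes was 0.29. Closest to Mitf were Anxa11 (0.51), an annexin gene, Zfp36l2 (0.50), of an RNA-binding protein, Lyn (0.47), the kinase of the IgE receptor, Gyg (0.46), the glycogenin gene, and Polr2e (0.44), of RNA polymerase, with a 95th percentile of 0.28. Some of these genes were sparse: Anxa11 was detected in 22 of the 80 cells, Polr2e in 36, Gyg in 37 and Arf5 in 39. The others were detected in 62 to 80 cells. The order for Gata2 was not stable: with Pearson correlation of log2(CPM + 1) 0 of its 5 genes stayed among the 5 closest.

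The summed reads of the 80 cells were set beside the WT bulk library on the log2(CPM + 1) scale. The cells and the bulk library differ in model and in preparation, and the effects of these cannot be told apart. Gata2 (2396 CPM in cells, 2659 in bulk, difference -0.15) and Mitf (382 and 400 CPM, -0.07) stood within 0.15 of the bulk level. Runx1 was somewhat higher in the cells (892 and 555 CPM, 0.68). Gata1 (226 and 74.8 CPM, 1.58) and Meis1 (237 and 87.8 CPM, 1.42) were over 2-fold higher in the cells, as were 29.6% of 13099 genes. Tal1 (44.5 and 346 CPM, -2.93), Spi1 (12.4 and 96.5 CPM, -2.86) and Zfpm1 (0.247 and 37.8 CPM, -4.96) were over 2-fold lower in the cells, as were 20.9% of genes. The 5th and the 95th percentile of genes were -2.56 and 2.79, so these 3 lie below that range. The median over these genes was 0.31, and Gata2 and Mitf lay below it. The summed cells were read far more deeply than the bulk library, with 223300 Gata2 reads against 6115. The read minimum could be met in either, so weak genes could enter through the cells alone. The shares and percentiles depend on this filter and describe only the genes that passed it. Per length, Gata2 exceeded Tal1 6.24-fold in WT bulk and 43.7-fold in the summed cells, and it exceeded Gata1 16.1-fold and 4.80-fold. Without the 2 immunoglobulin-rich cells the differences of Tal1, Spi1 and Zfpm1 were -2.89, -2.83 and -4.95. In WT bulk, 12 macrophage or monocyte genes rare in MMC9s summed to 406 reads, and the 12 erythroid and megakaryocyte ones to 27. The part of other cells in these differences was not tested.

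**Figure D4:**
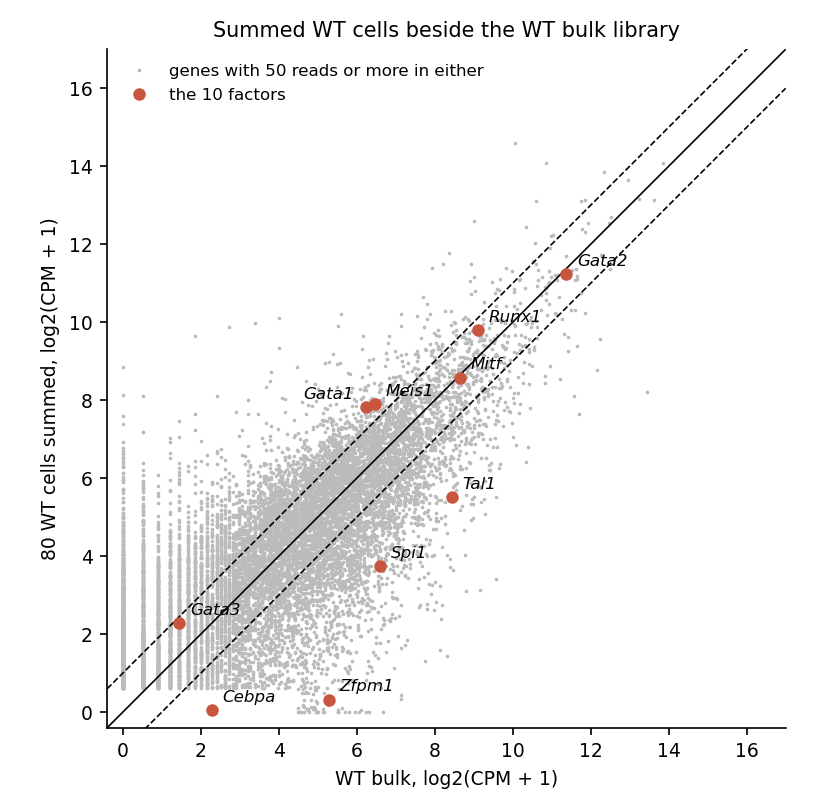
Summed reads of 80 WT cells against the WT bulk library, both as log2(CPM + 1), for genes with 50 reads or more in either (grey) and the 10 factors (red); the solid line marks equal levels and dashed lines mark a difference of 1 on this scale. Gata2 and Mitf lie near the line (-0.15 and -0.07), and Zfpm1, Tal1 and Spi1 lie below it (-4.96, -2.93 and -2.86).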

How the data were processed

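RNA-seq of 3 bulk MMC9 libraries (1 per genotype) and of 81 WT MMC9s was used. Per the labels, RNA came from a kit isolation and went into Illumina libraries. Per the submitters' processing notes, HISAT and featureCounts of Subread 2.0.0 were used, with the builds mm9 and GRCm38 and no role for either. For bulk libraries and cells the authors deposited raw counts, whole numbers of reads for each gene; the RPKM values mentioned in the design text were not used. Of 55471 gene IDs, 55144 were in GENCODE M21 (GRCm38), 99.4% of them with the same position, as were the 10 genes here. The sources used here give no strand setting, no handling of reads with several positions and no molecular identifiers, so reads of a gene and of an overlapping antisense gene cannot be told apart.

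Counts were scaled with TMM (edgeR 4.0.16, R 4.3.3). With 1 library per genotype no p-value was computed; the 95% interval of a log2 ratio is the exact conditional binomial one (Clopper-Pearson). RPKM here is TMM-scaled CPM per kilobase of the deposited exon length. A gene was tested where its larger library had 50 reads or more, and passed at 2-fold or more with an interval that excluded 1. List medians used genes with 20 reads or more over the libraries. Rare genes are list genes detected in under 5% of cells. Cells with at least 10000 gene reads were kept, and 10 reads marked detection, with exact intervals; no doublet caller or clustering was used. Alternatives were a read minimum of 20 or 200 or none, 1.5-fold, scaling by total reads or by DESeq2 1.42.0 size factors, and other detection rules; leaving out the 2 immunoglobulin-rich cells, and testing genes with 10 reads or more in each of 2 or more cells, were added after seeing the data. The 10 genes and the lists were chosen with earlier results of these data known. Named were the 10 genes, Il4ra, Batf and Kit, and of each context list the genes past the rule, the highest and lowest ratio per comparison and the gene with most reads; the 5 genes most like Gata2 and Mitf over cells were also named. Promoter windows came from RefSeq (GRCm38.p6).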

Additional observations from a re-analysis of the deposited data

How the results depend on the processing

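No paired analysis was possible because each bulk genotype had 1 library, and the groups share no replicate number beyond the first. Reads per gene limit the precision: Zfpm1 and Meis1 rest on 45 to 212 reads a library, and without replicate libraries the spread between animals is unknown.

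Scaling by total reads moved the log2 ratio of each gene by the same amount, -0.11 (IL-4RaY709F against WT), 0.13 (IL-4Ra-/- against WT) and -0.24 (between the mutants). It changed the sign of Tal1 in the first comparison, of Mitf and Meis1 in the second and of Gata2, Gata3, Zfpm1 and Spi1 in the third; DESeq2 size factors changed none. Of the 10 genes, 2 were then lower in IL-4RaY709F (Zfpm1 and Meis1), 0 lower in IL-4Ra-/- and 1 lower in IL-4RaY709F than in IL-4Ra-/- (Meis1). Of all genes, 45 rather than 81 were lower in IL-4Ra-/-, and between the mutants 145 rather than 292 were higher and 359 rather than 221 lower.

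At 1.5-fold, 2 of the 10 genes were lower in IL-4RaY709F than in WT, and between the mutants 1 was higher (Gata1) and 1 lower (Meis1). With a minimum of 200 reads, or among genes with 10 reads or more in each of 2 or more cells, 0 were lower in IL-4Ra-/-, since Zfpm1 was then not tested. Counts over all genes moved with the rule. In IL-4RaY709F against WT, 100 higher genes became 181, 43 and 252 with a minimum of 20, 200 or none and 367 at 1.5-fold, and 46 lower genes became 127, 8, 258 and 212. In IL-4Ra-/- against WT, 152 higher genes became 420, 18, 630 and 407, or 87 among genes detected at 10 reads in 2 or more cells, and 81 lower genes became 167, 24, 267 and 553. Between the mutants, 292 higher genes became 145 (minimum of 200), 556 (none) and 923 (1.5-fold), and 221 lower genes became 544, 29, 871 and 528, or 146 among genes detected at 10 reads in 2 or more cells.

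With 1 read as detection, the median share of cells with a factor was 63.1% rather than 43.75%. Of the 5 genes most like Gata2, 2 stayed among the 5 closest over cells with 500000 or more reads and 0 with Pearson correlation. Leaving out the 2 immunoglobulin-rich cells moved none of 14 values from cells past their counting intervals or, for counts, past 1.5-fold, and DESeq2 size factors moved none of 45 values.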
